A study of Rattus norvegicus with 6 samples.

Results

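The genes described here are 9 activity genes of the amygdala, defined by their symbols: the zinc finger transcription factors Egr1, Egr2, Egr3 and Egr4, the orphan nuclear receptors Nr4a1, Nr4a2 and Nr4a3, the neuronal transcription factor Npas4, and Arc, a protein of the postsynaptic cytoskeleton. Each of the 9 symbols matched 1 of the 38445 NCBI genes in the count tables, and all 9 were among the 18141 genes with enough counts to be tested. RNA-seq had been performed on the amygdala (central, medial and basolateral nuclei) of adult male Sprague Dawley rats, wild type, 1 h after an intraperitoneal injection of saline (control) or of ethanol at 1 g/kg, to ask which transcripts differ at the time when this dose lowers anxiety-like behavior. Each group of 6 rats gave 3 libraries, each made from RNA pooled from 2 rats, so that a library averages a pair of animals and single rats cannot be seen. The whole dissected tissue was used, with no sorting of cells, so fewer cells of a type and less RNA per cell cannot be told apart, and the p-values measure the spread between pools. Whether these rats had also been tested for behavior is not given in the sources used here.

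Immediate-early genes are transcribed within minutes of synaptic activity, without new protein synthesis. Calcium entry and receptor signalling activate MAP kinase and CaM kinase pathways, which act on transcription factors already bound at the promoters: SRF with its ELK partners at the CArG box, and CREB at the cAMP response element (CRE). The Egr, Nr4a and Npas4 products are themselves transcription factors that pass the signal on to later genes, whereas the Arc transcript travels to dendrites, where its protein takes part in removing AMPA receptors from synapses. In rodents, handling and injection alone are known to induce these genes, so that the saline group is the reference for the ethanol group and not an unstimulated state.

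The sequences upstream of 4 of these genes are shown because they carry the elements through which activity reaches this family. The RefSeq promoter table of the GRCr8 build matched 6 of the 9 genes: Egr1, Egr2, Egr4, Nr4a1, Nr4a2 and Npas4. Arc, Egr3 and Nr4a3 had no entry. The 250 bases before each annotated start were searched on both strands for the CRE half-site TGACG and for the CArG box, and both are set in capitals in the following sequences, written 5′ to 3′ on the gene's strand.
Egr1 (GRCr8 chr18:26736828-26737077, plus strand): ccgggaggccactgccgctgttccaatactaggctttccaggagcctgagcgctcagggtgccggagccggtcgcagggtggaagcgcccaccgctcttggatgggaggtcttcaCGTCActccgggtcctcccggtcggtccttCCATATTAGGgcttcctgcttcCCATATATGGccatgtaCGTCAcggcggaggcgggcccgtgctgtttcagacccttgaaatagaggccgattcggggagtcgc
Egr2 (GRCr8 chr20:21054442-21054691, minus strand): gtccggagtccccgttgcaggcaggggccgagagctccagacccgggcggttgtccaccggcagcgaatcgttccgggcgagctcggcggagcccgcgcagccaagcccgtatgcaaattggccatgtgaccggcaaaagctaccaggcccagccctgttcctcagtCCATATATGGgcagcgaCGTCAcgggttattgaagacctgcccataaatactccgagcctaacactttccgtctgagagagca
Egr4 (GRCr8 chr4:119607818-119608067, minus strand): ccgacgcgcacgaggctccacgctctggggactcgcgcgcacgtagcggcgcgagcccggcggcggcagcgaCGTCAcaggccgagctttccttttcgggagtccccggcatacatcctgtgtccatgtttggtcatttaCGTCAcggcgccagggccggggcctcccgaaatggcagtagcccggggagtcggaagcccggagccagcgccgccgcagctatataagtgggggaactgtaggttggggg
Nr4a1 (GRCr8 chr7:134259888-134260137, plus strand): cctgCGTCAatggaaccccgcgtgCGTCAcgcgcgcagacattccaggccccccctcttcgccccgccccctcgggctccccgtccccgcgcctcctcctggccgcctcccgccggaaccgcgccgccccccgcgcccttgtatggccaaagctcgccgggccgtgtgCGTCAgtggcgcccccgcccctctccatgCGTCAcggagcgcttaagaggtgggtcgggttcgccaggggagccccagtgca
Egr1 carried 2 CArG boxes, which begin 105 and 83 bases before the start, and 2 CRE half-sites, at 135 and 66 bases. Egr2 had 1 box and 1 half-site at the same distances as the pair nearer to the start of Egr1, 83 and 66 bases. Egr4 had half-sites at 178 and 110 bases and a TATAA at 28 bases, and Nr4a1 had 4 half-sites, at 246, 226, 82 and 53 bases. Nr4a1 was also the gene with a match to the EGR site GCGNGGGCG, at 73 bases, the element that Egr proteins bind. Among the 6 members with an entry, 5 held a CRE half-site and 2 a CArG box, whereas 18.2% and 1.5% of the 33469 promoters in the table did. The EGR site was present in 4.29% of them and TATAA in 24%. A CRE half-site stood 8 bases before the start of Nr4a2, and the window of Npas4 held a TATAA at 147 bases and none of the other elements. The annotated start of both genes may not be their main start, and the distances, the missing elements in Npas4 and the count of 5 of 6 rest on it. None of the searched elements overlapped another in these windows. A match is a run of letters and not a measured binding site.

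**Figure D1:**
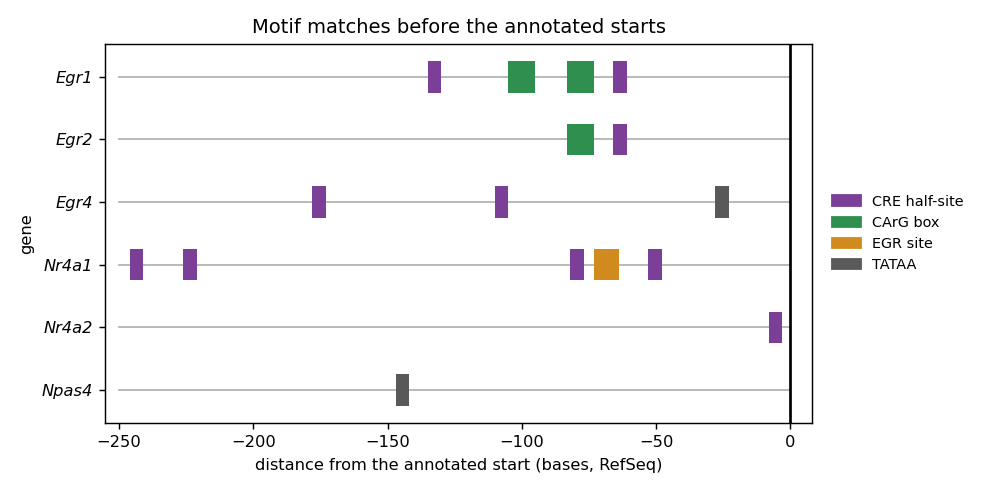
Motif matches in the 250 bases before the annotated RefSeq start (x axis, distance in bases) of the 6 activity genes with a promoter entry (y axis). Each block is 1 match on either strand. The CArG box and CRE half-site nearest to the start lie at the same distances, 83 and 66 bases, in Egr1 and Egr2.

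The 6 libraries held between 62576504 and 70755739 assigned reads, and each member had between 329 and 5951 counts in every library. Levels are given as CPM, the count of a gene per 1e+06 assigned reads of its library, scaled by the trimmed mean of M values (TMM). Libraries differed in the tissue they contained. The summed level of 10 choroid plexus markers ran from 524 to 1134 CPM in controls but was 13.4, 14.7 and 486 CPM in ethanol replicates 1, 2 and 3. Of the 9 such markers tested, 5 were lower at an unadjusted p below 0.05, and Otx2 was too low for a test. Ethanol replicate 3 had a sum of 339 CPM over 10 hypothalamic markers. The sum was 17.3 to 119 CPM in the controls and 33.0 and 19.2 CPM in the other ethanol libraries. Pmch alone was at 206 CPM in ethanol replicate 3. Oxt, Pomc and Agrp were each higher in another library. The remaining tested markers were highest in ethanol replicate 3, with Avp at 69.0 CPM against 60.3 CPM in control replicate 1. Neuronal markers of the cortical-type amygdala were well expressed in all 6 libraries (1625 to 2620 CPM summed over 10 genes, none at 0), as were those of the striatal-type and central nuclei (860.5 to 1146 CPM over 10 genes, none at 0). Summed ependymal markers were at 60.9 to 88.1 CPM in controls and 49.8 to 53.3 CPM after ethanol, with 7 of the 9 tested lower at an unadjusted p below 0.05. Oligodendrocyte markers summed to 3658 to 8615 CPM in controls and 4483 to 9946 CPM after ethanol. The sums of astrocyte, microglial and vascular markers also overlapped between the groups. Single markers of other lists passed an unadjusted p below 0.05 in edgeR, as did 4.15% of all genes tested. Tbr1 (cortical-type) and Tmem119 (microglial) were higher after ethanol, and Kdr (vascular) was lower. The part of these differences in the members' values was not tested. Results are given with and without ethanol replicate 3. Without it, the ethanol group consists of ethanol replicates 1 and 2, the libraries lowest in choroid plexus markers, so that fit keeps this difference between the groups.

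In saline-treated rats the members spanned a wide range of levels. Per kilobase of annotated exon, Egr1 was the most abundant, with 33.4 ± 3.72 CPM per kb (SD, n = 3 libraries), followed by Egr3 with 18.1 ± 0.491 and Arc with 11.99 ± 2.17 CPM per kb (SD, n = 3). The next were Nr4a3 with 9.53 ± 2.15, Egr4 with 7.35 ± 0.389, Nr4a1 with 4.19 ± 0.865 and Nr4a2 with 3.79 ± 0.269 CPM per kb (SD, n = 3). Egr2 and Npas4 were the lowest, at 1.26 ± 0.1002 and 1.20 ± 0.379 CPM per kb (SD, n = 3). Among neighbours in this order, the control libraries overlapped for Arc and Nr4a3, for Nr4a3 and Egr4, for Nr4a1 and Nr4a2, and for Egr2 and Npas4, and did not overlap for the other pairs. The length used is that of the counting annotation, from 1527 bases for Egr1 to 7055 bases for Egr2, and a gene's place in the order rests on it. The length of Egr2 exceeds the whole span of the gene in the RefSeq annotation used for the symbols (5053 bases). So does that of Arc, with 3544 bases against a span of 3455 bases. Egr1, first in the order, was counted over 1527 bases, while its span there, introns included, is 3800 bases. Reads from any exonic base outside the counted ones are missing from its CPM. In control CPM without division by length, Egr3 (75.3) and Nr4a3 (57.4) were above Egr1 (51.0). After ethanol the order of the means was the same except that Egr4, at 9.35 CPM per kb, stood above Nr4a3, at 8.44. The others were at 42.2 for Egr1, 20.2 for Egr3, 14.9 for Arc, 5.29 for Nr4a1, 3.38 for Nr4a2, 1.65 for Egr2 and 1.30 CPM per kb for Npas4.

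No member passed the threshold of the study, an adjusted p below 0.2. The study itself reported genes past this threshold in these libraries, with a model that is not given in the sources used here. With p-values of the quasi-likelihood test of edgeR adjusted by Benjamini-Hochberg, 0 of the 9 members were called, as were 0 of the 18141 genes (0%), and 0 members were called by edgeR's likelihood ratio test, DESeq2 or limma-voom, which called 77, 75 and 0 of all genes. At an unadjusted p below 0.05, Egr1 and Egr4 were higher after ethanol and 0 members were lower. Thus 2 of 9 passed, where 4.15% of all genes tested passed in either direction, 1.57% with the ethanol group higher and 2.57% with it lower. Of the 9 log2 fold changes 7 were above 0, as were 52.6% of those of all genes tested, and their median was 0.31, against 0.0064 over all genes tested. Egr1 was the single member whose groups did not overlap. Over all genes tested, 8.85% showed this pattern in either direction, 3.66% with the ethanol group higher and 5.19% with it lower. The 9 genes were chosen with earlier results of these data known, so setting them beside these shares is no independent test.

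Egr1 (NCBI gene 24330, also known as Zif268, a factor widely used to map neuronal activation) occupies bases 27657903 to 27660101 of chromosome 18 (Rnor_6.0, as for all members), plus strand, with 2 exonic blocks. Its level was 56.4, 51.5 and 45.1 CPM in control replicates 1, 2 and 3 and 69.6, 59.4 and 64.3 CPM in ethanol replicates 1, 2 and 3. Every ethanol library was above every control library. The group means of 51.0 ± 5.68 and 64.4 ± 5.11 CPM (SD, n = 3 libraries each) gave a log2 fold change of 0.34 (standard error 0.10, 95% interval 0.11 to 0.56), a 1.26-fold higher level after ethanol. The unadjusted p was 0.00834 and the adjusted p 1.0 in edgeR's quasi-likelihood test, and the 2-sided exact permutation test on log2 CPM gave 0.1, the smallest p that 3 libraries against 3 allow. Whichever library was left out, the log2 fold change of Egr1 stayed between 0.26 and 0.41, with an unadjusted p between 0.00488 and 0.0345 from edgeR.

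Egr4 (NCBI gene 25129, an early-response factor with expression mostly in the nervous system) lies on the minus strand of chromosome 4 from 117293620 to 117296082 in 2 exonic blocks. Control replicates 1, 2 and 3 were at 16.2, 16.3 and 14.8 CPM, and ethanol replicates 1, 2 and 3 at 22.2, 22.2 and 15.9 CPM. The first pair of ethanol libraries were well above the controls, whereas ethanol replicate 3 lay among them. The log2 fold change was 0.35 (standard error 0.13, 95% interval 0.04 to 0.66), with an unadjusted p of 0.032 and an adjusted p of 1.0 from edgeR. Without ethanol replicate 3 it was 0.49, with an adjusted p of 0.141 from the same test. Leaving out any other library ended the unadjusted call, with log2 fold changes from 0.27 to 0.37 and unadjusted p-values from 0.0526 to 0.111 in edgeR.

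Egr2 (NCBI gene 114090, chromosome 20 from 22452170 to 22461018, minus strand, 4 exonic blocks), known for myelination in peripheral nerve and as an activity gene in neurons, followed the same library pattern at a lower level. Its controls were at 9.73, 8.46 and 8.55 CPM, and the ethanol libraries at 14.6, 12.8 and 7.65 CPM. Ethanol replicates 1 and 2 were the highest of the 6 libraries and ethanol replicate 3 the lowest. The log2 fold change of 0.39 (standard error 0.22, 95% interval -0.11 to 0.89) was the largest of the members and did not exceed the spread between libraries (unadjusted p = 0.112, adjusted p = 1.0 from edgeR). Without ethanol replicate 3 it was 0.62, with an adjusted p of 0.183 from edgeR, and without ethanol replicate 1 it was 0.20, with an unadjusted p of 0.385.

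Egr3 (NCBI gene 25148, chromosome 15 from 51756683 to 51762080, plus strand, 3 exonic blocks), an activity-induced factor also needed for muscle spindles, was the member with the steadiest controls. They stood at 73.1, 75.8 and 77.1 CPM, a coefficient of variation of 2.71%, and the ethanol libraries at 92.7, 91.0 and 68.8 CPM. Again ethanol replicates 1 and 2 were above all controls and ethanol replicate 3 was below them. The log2 fold change was 0.16 (standard error 0.11, 95% interval -0.10 to 0.42, unadjusted p = 0.185, adjusted p = 1.0 from edgeR), so that the interval reaches a 1.33-fold higher level at most. Without ethanol replicate 3 it was 0.29, with an adjusted p of 0.212 from edgeR, and without ethanol replicate 1 it was 0.086, with an unadjusted p of 0.494.

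The log2 fold changes of the 4 Egr genes thus lay between 0.16 and 0.39, with a median of 0.34. In Egr2, Egr3 and Egr4, but not in Egr1, ethanol replicate 3 stood apart from the other ethanol libraries. In the fit without ethanol replicate 3, all 4 had an unadjusted p below 0.05 and 2, Egr2 and Egr4, an adjusted p below 0.2 in edgeR's quasi-likelihood test. That fit gave more calls over the whole table too, with 83 genes at an adjusted p below 0.2 and 8.87% of genes at an unadjusted p below 0.05. Ethanol replicate 3 was the lowest library for Egr2 and Egr3 and the lowest ethanol library for Egr4. Leaving it out therefore had to raise their fold changes, and the calls in that fit are no independent support. Per length, Egr4 stood at 0.372 to 0.428 of the Egr3 level in controls and at 0.447 to 0.472 after ethanol, including 0.447 in ethanol replicate 3. This ratio was chosen after its values were seen and has no test.

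**Figure D2:**
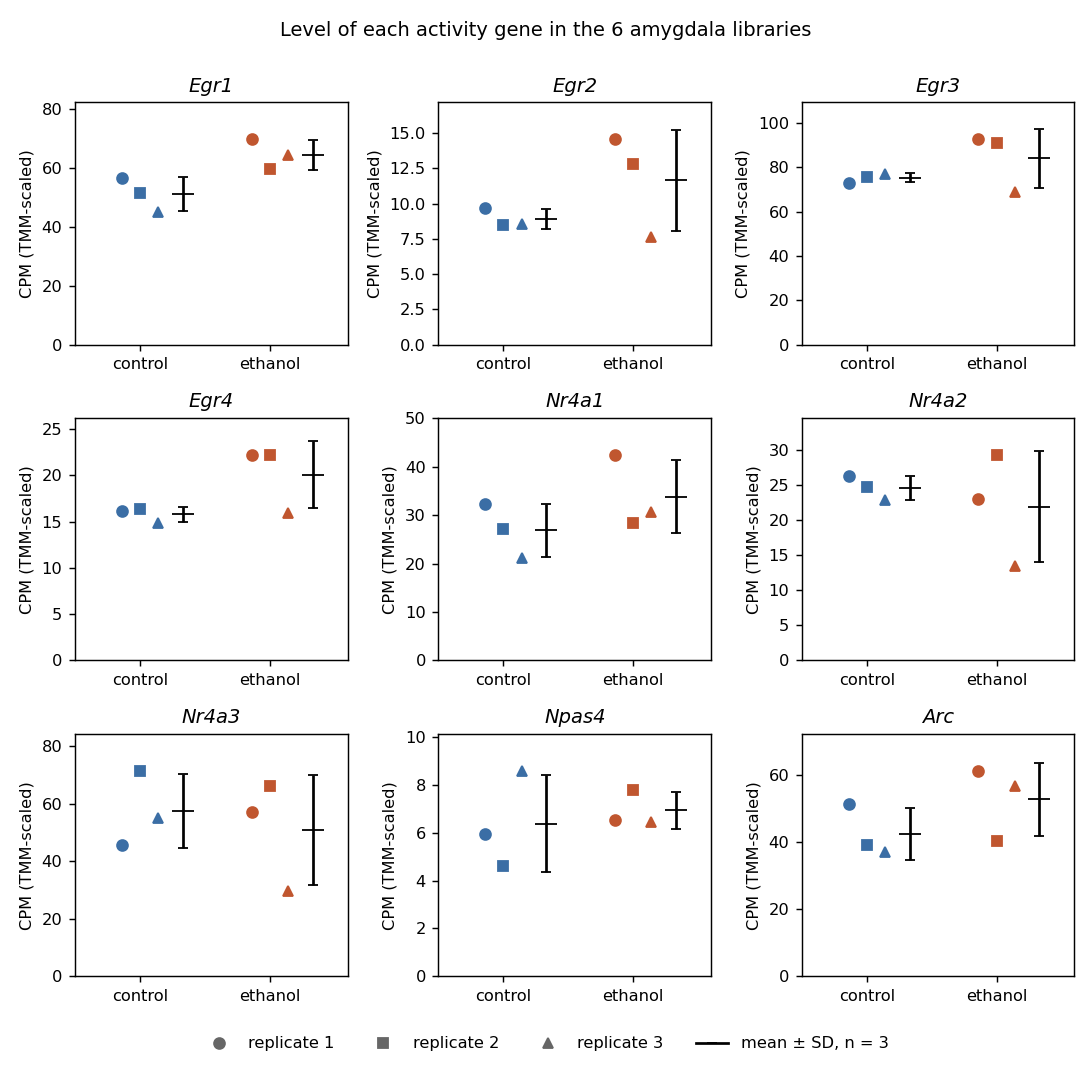
Level of each activity gene (y axis, CPM scaled by TMM, from 0) in the 3 control and 3 ethanol libraries, with the marker shape giving the replicate number and the black bar the mean ± SD. The 3 ethanol values of Egr1 (59.4 to 69.6 CPM) lie above all its controls, whereas ethanol replicate 3 is the lowest of the 6 libraries for Egr2, Egr3, Nr4a2 and Nr4a3.

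Nr4a1 (NCBI gene 79240, Nur77), a nuclear receptor without a known classical ligand that is induced in neurons and in many stressed cells, lies on the plus strand of chromosome 7 from 142899358 to 142920216 in 10 exonic blocks. Its level was 32.2, 27.2 and 21.2 CPM in the controls and 42.4, 28.4 and 30.7 CPM in the ethanol libraries. Only ethanol replicate 1 was above the highest control. The means were 26.9 ± 5.54 and 33.9 ± 7.5 CPM (SD, n = 3 each), a log2 fold change of 0.33 (standard error 0.19, 95% interval -0.10 to 0.77, unadjusted p = 0.115, adjusted p = 1.0 from edgeR). This was 0.14 without ethanol replicate 1 and 0.48 without control replicate 1 (unadjusted p = 0.43 and 0.0449 from edgeR).

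Nr4a2 (NCBI gene 54278, Nurr1, chromosome 3 from 43111258 to 43128391, minus strand, 9 exonic blocks) is needed for dopamine neurons and marks deep cortical and claustral neurons. It stood at 26.3, 24.8 and 22.8 CPM in the controls and 23.0, 29.3 and 13.6 CPM after ethanol. The first pair of ethanol libraries lay around the controls, and ethanol replicate 3 was the lowest of the 6. The log2 fold change of -0.17 (standard error 0.24, 95% interval -0.72 to 0.39, unadjusted p = 0.502, adjusted p = 1.0 from edgeR) became 0.09 without ethanol replicate 3.

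Nr4a3 (NCBI gene 58853, NOR-1, chromosome 5 from 63781801 to 63822890, plus strand, 11 exonic blocks), the third receptor of this family, had the widest spread of the 9 genes. Its controls were at 45.8, 71.4 and 55.0 CPM and the ethanol libraries at 57.0, 66.0 and 29.6 CPM. Ethanol replicate 3 was again the lowest library, and control replicate 2 the highest. The log2 fold change was -0.18 (standard error 0.28, 95% interval -0.83 to 0.48, unadjusted p = 0.554, adjusted p = 1.0 from edgeR) and became 0.10 without ethanol replicate 3 and 0.01 without control replicate 2.

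The log2 fold changes of the nuclear receptors had different signs with all 6 libraries, but none differed from 0 beyond the spread between libraries, and without ethanol replicate 3 all were above 0 (0.40 for Nr4a1, 0.085 for Nr4a2 and 0.10 for Nr4a3). Per length, Nr4a3 stood at 1.51, 2.79 and 2.76 times the level of Nr4a1 in the controls and at 1.43, 2.47 and 1.02 times after ethanol. Nr4a2 stood at 0.805, 0.899 and 1.06 times the level of Nr4a1 in the controls and at 0.534, 1.02 and 0.434 times after ethanol. These ratios were chosen after the values were seen and have no test. The summed level of the 10 cortical-type glutamatergic markers was 1625, 2376 and 2053 CPM in the controls and 2275, 2620 and 1727 CPM after ethanol. In ethanol replicate 3, in which Nr4a2 and Nr4a3 were lowest, this sum was the lowest of the ethanol group but above that of control replicate 1. The part of cell composition in the levels of these genes was not tested.

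Npas4 (NCBI gene 266734, chromosome 1 from 220260310 to 220278177, minus strand, 11 exonic blocks) is a neuron-specific factor induced by calcium entry that shapes inhibitory synapses. It had the fewest reads of the members, with 389, 329 and 545 counts in the controls and 420, 503 and 450 counts after ethanol. These correspond to 5.95, 4.63 and 8.59 CPM and to 6.54, 7.82 and 6.46 CPM. The ethanol libraries all lay inside the range of the controls. The log2 fold change was 0.12 (standard error 0.22, 95% interval -0.38 to 0.62, unadjusted p = 0.593, adjusted p = 1.0 from edgeR), and leaving out single controls moved it from -0.07 to 0.39. The interval reaches from 0.769 to 1.54 times the control level. Without ethanol replicate 3 the log2 fold change was 0.17 (unadjusted p = 0.514 from edgeR).

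Arc (NCBI gene 54323) lies on the minus strand of chromosome 7 from 115907097 to 115911059 in 3 exonic blocks. Its level was 51.3, 39.0 and 37.1 CPM in the controls and 61.2, 40.4 and 56.6 CPM in the ethanol libraries. Ethanol replicates 1 and 3 were above all controls, whereas ethanol replicate 2 lay below the highest control. With means of 42.5 ± 7.7 and 52.7 ± 10.9 CPM (SD, n = 3 each), the log2 fold change was 0.31 (standard error 0.17, 95% interval -0.09 to 0.72, unadjusted p = 0.112, adjusted p = 1.0 from edgeR), and the exact permutation test gave p = 0.2. It was 0.47 without ethanol replicate 2 and 0.46 without control replicate 1 (unadjusted p = 0.0123 and 0.0333 from edgeR). Leaving out ethanol replicate 1 gave 0.19 and leaving out ethanol replicate 3 gave 0.26 (unadjusted p = 0.333 and 0.233 from edgeR). Arc thus differed from Egr2, Egr3 and Egr4 in the library that stood lowest after ethanol, and its ratio to Egr1 per length ran from 0.326 to 0.392 in controls and from 0.293 to 0.38 after ethanol.

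**Figure D3:**
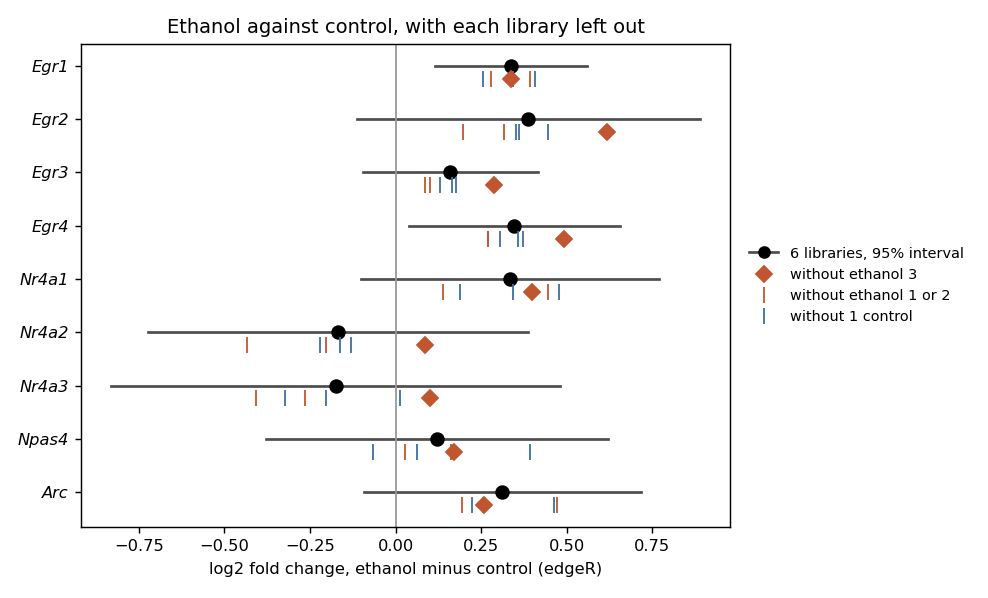
Log2 fold change of each activity gene, ethanol minus control (x axis, edgeR), with its 95% interval from all 6 libraries and the values after dropping single libraries. The interval lies above 0 for Egr1 (0.11 to 0.56) and Egr4 (0.04 to 0.66). The diamonds, which leave out ethanol replicate 3, lie above 0 for all 9 genes. This library is the lowest of the 6 for Egr2, Egr3, Nr4a2 and Nr4a3, so leaving it out necessarily raises their values.

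Read by library, the sets of members above all controls overlapped between the ethanol pools but were not the same. In ethanol replicate 1, 6 of the 9 genes were above all controls (Arc, Egr1, Egr2, Egr3, Egr4 and Nr4a1), and the median deviation of the 9 genes from their control means was 0.45 on the log2 scale. In ethanol replicate 2, 5 were above all controls (Egr1 to Egr4 and Nr4a2), with a median of 0.25. In ethanol replicate 3, Arc and Egr1 were above all controls, Egr2, Egr3, Nr4a2 and Nr4a3 were below all controls, and the median was 0.01. Egr1 was the gene above all controls in each ethanol library. The share of all genes tested that lay above or below all controls in a single library was not determined. These counts therefore only describe the members. Among the controls the medians were 0.10, 0.01 and -0.09, and control replicate 3 was the lowest of the 6 libraries for Arc, Egr1, Egr4 and Nr4a1 and the highest for Npas4.

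**Figure D4:**
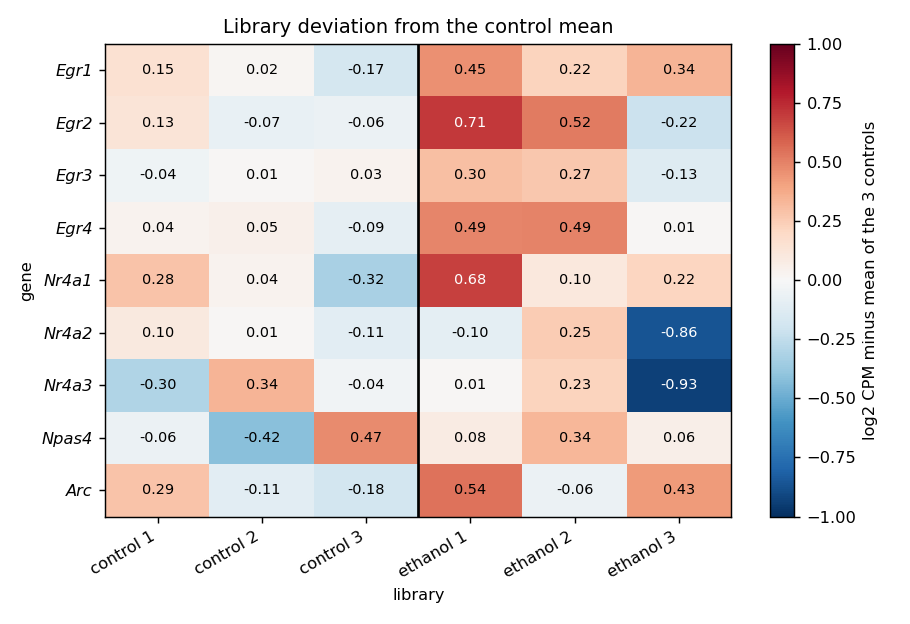
Log2 CPM of each activity gene (rows) in each library (columns) minus the mean of the 3 controls, with the value in each cell. Ethanol replicate 1 is above the control mean for all members but Nr4a2, and ethanol replicate 3 ranges from -0.93 for Nr4a3 to 0.43 for Arc.

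The spread between pools differed widely among these genes. The biological coefficient of variation fitted by edgeR was 9.36% for Egr1 and 10.3% for Egr3, which places them at the 38th and 45th percentile of all genes tested. It was 12.7% for Egr4, 15.5% for Arc and 16.8% for Nr4a1. It reached 19.5% for Egr2, 19.6% for Npas4, 21.0% for Nr4a2 and 24.4% for Nr4a3, and these 4 genes lay between the 85th and the 92.7th percentile. The same nominal difference is therefore resolved least well for Nr4a3 and best for Egr1. In controls alone, the coefficient of variation ran from 2.71% for Egr3 to 31.6% for Npas4.

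The genes whose library pattern was nearest to that of the members were found by standardising log2 CPM over the 6 libraries and taking the root mean square difference from the mean standardised profile of the 9 genes. That profile was high in ethanol replicates 1 and 2 (1.52 and 0.94) and lay between -0.85 and -0.15 in the other 4 libraries. Among the nearest genes that are not members were St6gal2, Ing2, Nox1 and Plcb1, with differences of 0.089, 0.117, 0.14 and 0.143. None of these 4 had an unadjusted p below 0.05 in edgeR's test. The members themselves, which enter the mean, were at 0.113 for Egr2, 0.268 for Egr4 and 0.379 for Egr3, and at 1.02, 1.011 and 1.17 for Arc, Nr4a3 and Npas4. Egr1, Nr4a1 and Nr4a2 were at 0.780, 0.718 and 0.951. The mean profile was therefore chiefly that of Egr2, Egr3 and Egr4. Ranked by this difference among all genes tested, Nr4a2, Nr4a3, Arc and Npas4 lay between the 23.8th and the 38.4th percentile. Many other genes were thus nearer to the mean profile than these members.

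Genes that act before, beside and after the members were read from 5 lists with 95 entries, all of them tested. Of these, 12 had an unadjusted p below 0.05, all 12 higher after ethanol (over all genes tested, 4.15% passed in either direction and 1.57% with the ethanol group higher), and 0 had an adjusted p below 0.2 in edgeR's quasi-likelihood test. Among 25 upstream kinases and transcription factors, 2 passed the unadjusted threshold, and the median log2 fold change was 0.05. These were Camk4, a nuclear calmodulin kinase that phosphorylates CREB, which went from 119 ± 17.2 to 153 ± 6.69 CPM (SD, n = 3 each, log2 fold change 0.36), and Mef2d, a calcium-regulated factor, from 205 ± 4.39 to 230 ± 16.8 CPM (SD, n = 3 each, log2 fold change 0.17). Map2k1, an abundant kinase of this list, had a log2 fold change of 0.11 and overlapping groups. Of 11 partners and corepressors, which include the Egr corepressors Nab1 and Nab2, the Nr4a partners Rxra to Rxrg and the Npas4 partner Arnt2, 0 passed at an unadjusted p below 0.05 in edgeR's test, and their log2 fold changes lay between -0.14 and 0.06.

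Other rapid immediate-early genes showed most of the unadjusted calls. Of 24 such genes 7 had an unadjusted p below 0.05, each higher after ethanol, and the median log2 fold change was 0.18. Dusp1, a phosphatase that switches off MAP kinases, was at 21.6, 19.7 and 18.6 CPM in controls and at 26.1, 28.7 and 25.1 CPM after ethanol (log2 fold change 0.42, standard error 0.08, adjusted p = 0.818 from edgeR). Btg2, an antiproliferative early gene, Gadd45g, a stress-inducible gene linked to DNA demethylation, Junb, an AP-1 subunit, Trib1, a pseudokinase, and Per1, a clock gene induced by CREB and glucocorticoids, had log2 fold changes of 0.41, 0.34, 0.32, 0.35 and 0.31. The groups did not overlap for 8 genes of this list, all with the ethanol group higher, a pattern that 3.66% of all genes tested showed. Jun, the most abundant gene of the list, was at 92.6 ± 21.2 and 92.4 ± 14.2 CPM (SD, n = 3 each). For Dusp1, the study itself reported an increase after ethanol in its own RNA-seq results and by qPCR.

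Among 20 delayed effectors, 3 had an unadjusted p below 0.05 and the median log2 fold change was 0.02. Rasgrp1, which couples calcium and diacylglycerol to Ras, was at 120.5, 101 and 104 CPM in controls and 208, 158 and 145 CPM after ethanol (log2 fold change 0.65, standard error 0.14, adjusted p = 0.818 from edgeR). Nptx2, an activity-regulated pentraxin that clusters AMPA receptors, and Cdkn1a, a cell cycle inhibitor, had log2 fold changes of 0.38 and 0.44. The abundant members of that list, Scg2 and Syt4, were at -0.15 and 0.01. For Nptx2, the study itself reported an increase after ethanol in its own RNA-seq results and by qPCR. Of 15 Arc-binding and AMPA receptor trafficking genes, 0 had an unadjusted p below 0.05 in edgeR's test, and the abundant Dlg4 and Camk2a stood at log2 fold changes of 0.04 and 0.16. The lists were chosen with earlier results of these libraries known, and without ethanol replicate 2 the 12 unadjusted calls became 5, without ethanol replicate 3 they became 21, without control replicate 1 they became 7, and without control replicate 3 they became 6. Over all genes tested, 3.16%, 8.87%, 3.91% and 3.1% passed the unadjusted threshold in those fits, in the same order, against 4.15% with all libraries.

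**Figure D5:**
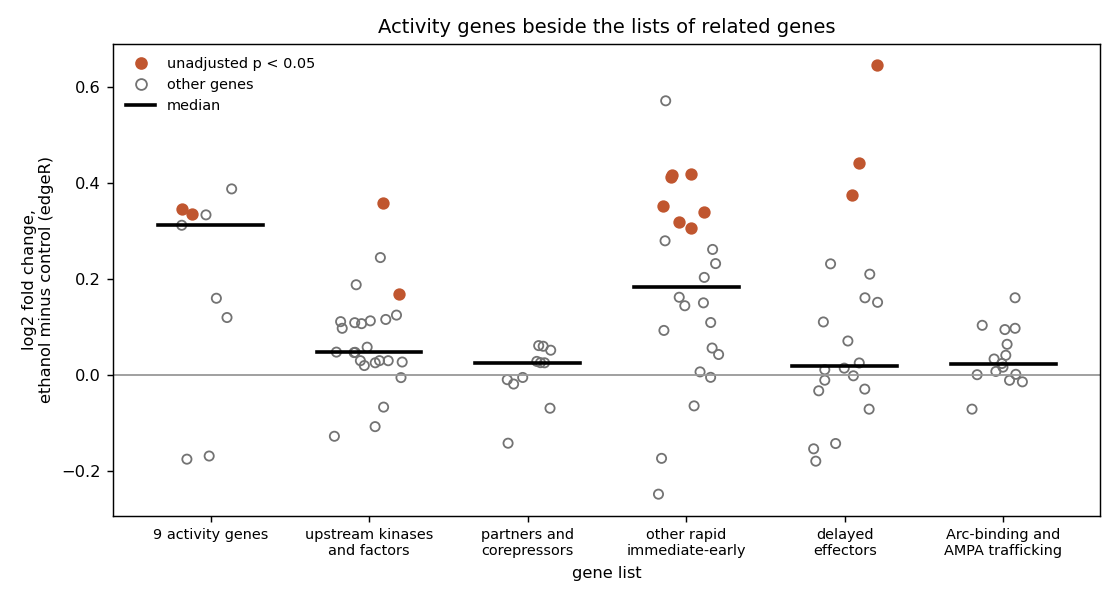
Log2 fold change, ethanol minus control (y axis, edgeR), of the 9 activity genes and of the genes of 5 related lists (x axis), with filled points for an unadjusted p below 0.05 and black bars for medians. The medians are 0.31 for the activity genes and 0.18 for the other rapid immediate-early genes, and between 0.02 and 0.05 for the remaining lists.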

How the data were processed

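The 9 genes, the related lists and the markers were chosen with earlier results of these data known. Per the labels, the strand-specific libraries were read as single-end 100 nt reads on 3 lanes, from RNA with integrity numbers above 8. The authors deposited raw counts for 6 libraries, aligned with STAR 2.7.0f and counted by featureCounts of Subread 1.6.3 with strand setting 2 over exons of the Rnor_6.0 annotation. The command in the file headers left multimapping and multi-overlapping reads at the default of that tool, uncounted. No exonic base of a member overlapped another gene. Symbols came from RefSeq by NCBI gene ID for 29322 of 38445 genes. In R 4.3.3, edgeR 4.0.16 kept genes by filterByExpr (minimum 10 counts, 15 in total), scaled by TMM and compared groups with the quasi-likelihood F test, adjusting p over all genes tested (Benjamini-Hochberg). The standard error is the absolute log2 fold change over the square root of F, and log2 CPM values use a prior count of 2. The threshold was the study's 0.2, and the model behind it is not given in the sources used here. The code was tested on simulated data. Alternatives were edgeR's likelihood ratio test, DESeq2 1.42.0, limma-voom (limma 3.58.1), other scalings and filters, a replicate block and leaving out each library. Named were the 9 members, the 5 nearest profiles, marker genes and, per list, the 2 most abundant genes with up to 5 at an unadjusted p below 0.05; some genes this rule names are not reported here. Totals were 62576504 to 70755739 reads, at which 3 counts are 0.0424 to 0.0479 CPM, for counting error only. No pair of libraries within a group was a duplicate (chi-square per degree of freedom 14.3 to 67.6). Pairs of a control and an ethanol library were not compared in this way.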

Additional observations from a re-analysis of the deposited data

How the results depend on the processing

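With all 6 libraries kept, the members' log2 fold changes kept their direction and stayed above an adjusted p of 0.2 under each of the other tests, scalings and filters and under the replicate block, in 72 of 72 fits of a member. The block (replicate number as a factor) raised the members with an unadjusted p below 0.05 from 2 to 4, adding Arc and Nr4a1. Same-numbered libraries came from different rats, and their deviations from the group means correlated by 0.026, 0.388 and 0.21 over 14241 genes, while control 1 correlated with ethanol 3 by 0.305, so the numbers were not taken as pairs. The block changed no other call of the members. With 1 library left out, 48 of 54 fits of a member kept direction and call. Members with an adjusted p below 0.2 ran from 0 to 2, those with an unadjusted p below 0.05 from 1 to 4, those with groups that do not overlap from 1 to 4, and the unadjusted calls in the related lists from 5 to 21. Over all genes tested, these fits of edgeR gave 0 to 83 genes at an adjusted p below 0.2 and 3.1% to 8.87% at an unadjusted p below 0.05. Groups separate more easily with fewer libraries, and the share of all genes without overlap was not determined in these fits. The median log2 fold change of the members ran from 0.16 (without ethanol replicate 1) to 0.36. Egr4 lost its unadjusted call without control replicates 1, 2 and 3 and without ethanol replicates 1 and 2, and Egr1 kept it in all 6 fits. Nr4a2 ran from -0.43 to 0.085, Nr4a3 from -0.41 to 0.10 and Npas4 from -0.066 to 0.39. Nr4a2 reversed without ethanol replicate 3 (0.085), Nr4a3 without ethanol replicate 3 (0.10) and without control replicate 2 (0.01), and Npas4 without control replicate 2 (-0.066). Library size alone moved the median of all genes to -0.02. With 3 pools per group the exact permutation test cannot go below 0.1, and lower read depths were not tried.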
